A study of Mus musculus with 6 samples.

Results

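Calcium storage and release at the skeletal muscle triad was followed through 10 genes in mice with a deletion of the proteasome subunit Rpt3 aimed at fast muscle fibers. The genes were chosen by symbol for their place in the triad, with 3 of the luminal calcium store (Casq1, Casq2 and Hrc), 4 of the junctional anchors (Trdn, Asph, Jph1 and Jph2) and 3 of the release channel and voltage sensor (Ryr1, Cacna1s and Cacng1). Each was matched to its probes through the annotation of the array platform. All 10 were found among 18562 named genes, and all 10 passed the filter on dim signals that left 14731 genes tested.

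Total RNA of whole muscle came from 3 female Rpt3−/− mice and 3 female Rpt3+/+ control mice at 6 weeks of age and was labelled with Cy5, with 1 CodeLink bioarray for each mouse. The labels give both groups the strain mlc1f-Cre/ Rpt3-floxed, whereas the study's text gives the controls as carrying Mlc1f-Cre with unaltered Rpt3 alleles, so that both groups carry Cre and the controls are called Rpt3+/+ here. The muscle is the tibialis anterior in the labels and the gastrocnemius in the study's text. The Mlc1f promoter drives Cre in fast-twitch fibers, so slow fibers and the other cells of the muscle may keep Rpt3, which was not measured by cell type here. Excision by this Cre is partial according to the study's text, so some muscle fiber nuclei might have kept the gene as well. In RNA of whole muscle, fewer cells of a type and less RNA per cell cannot be told apart.

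At the triad a transverse tubule, an inward fold of the surface membrane, lies between a pair of terminal cisternae of the sarcoplasmic reticulum. Depolarization moves the voltage sensor in the tubule, which opens the ryanodine receptor in the facing cisterna, and calcium leaves the lumen to start contraction. Calsequestrin holds the calcium in the lumen, triadin and junctin tie it to the channel, and junctophilins bridge the gap between the membranes. The study examined sarcoplasmic reticulum proteins of the gastrocnemius with antibodies. Protein was not measured on the arrays, which report RNA alone.

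The calsequestrin genes moved in opposite directions. Casq2, which encodes the calsequestrin of heart that slow and immature skeletal fibers also use, was 2.69-fold higher in Rpt3−/− muscle, while Casq1, which encodes the main calsequestrin of fast fibers, was 1.97-fold lower. Both junctophilin genes fell, Jph1 2.20-fold and Jph2 2.29-fold, and Cacna1s, the gene of the voltage sensor, fell 1.76-fold. Smaller falls in Trdn, Asph and Ryr1 passed the test by the brightest probe of each gene, and Hrc and Cacng1 did not pass. The test was limma, a linear model with an adjusted p under 0.05 over all tested genes. Of the 10 genes 1 was higher, where 12.7% of all tested genes were, and 7 were lower, where 6.56% of all tested genes were, so the share of higher genes was near that of the array and the share of lower genes above it. The count of lower genes depended on the processing, with 3 of the 10 under median centring, 4 in the authors' value table and 4 with the mean of a gene's probes, while 1 was higher in each of these. By the unpaired parametric test of the study's methods, after adjustment, 5 were lower and 0 higher. The arrays of the groups did not overlap for 8 of the 10 genes, against 36.8% of all tested genes. The median log2 fold change of the 10 genes was -0.52, against -0.01 over all genes. Over all genes 1870 were higher and 967 lower. With each array centred on its median in place of quantile normalization these were 2556 and 600, and with each array centred on Actb, the gene of beta-actin, they were 329 and 10326, which moved the median of all genes to -0.72. Since this centring sets Actb to no change, Actb itself was higher in Rpt3−/− muscle relative to the median of all genes.

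**Figure D1:**
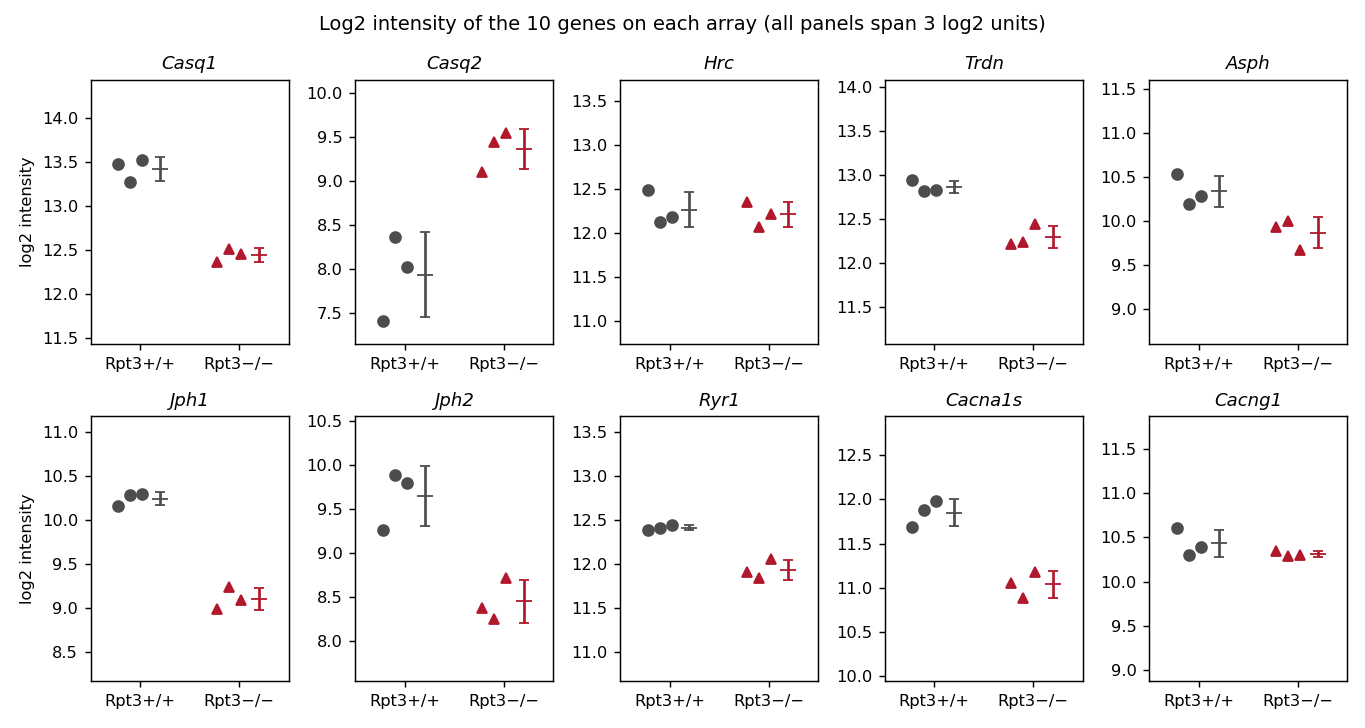
Log2 intensity of the brightest probe of each of the 10 genes (vertical axis, a 3-unit span in each panel) on the 3 Rpt3+/+ arrays (gray circles) and the 3 Rpt3−/− arrays (red triangles), with the mean and SD beside them. The Rpt3−/− arrays of Casq2 lie at 9.10 to 9.54, above all Rpt3+/+ arrays, those of 7 other genes lie below all Rpt3+/+ arrays, and those of Hrc and Cacng1 overlap with them.

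In the luminal store, the log2 intensity of Casq1 was 12.36, 12.52 and 12.45 in Rpt3−/− muscle against 13.48, 13.27 and 13.52 in Rpt3+/+ muscle. Every Rpt3−/− array lay below every Rpt3+/+ array, with a log2 fold change of -0.98 (SE, the standard error, 0.13, limma adjusted p = 0.000725). Before any normalization between arrays, the background-subtracted intensities of its probe were 6566, 6389 and 6600 against 12516, 7652 and 10807, and the groups were already apart. Array brightness is part of such values, the median over probes being 52.7 on the second Rpt3+/+ array and 80.2 to 114 on the others. For Casq2 the log2 intensities were 9.10, 9.44 and 9.54 in Rpt3−/− muscle against 7.41, 8.36 and 8.03 in Rpt3+/+ muscle. The groups did not overlap here either, and the log2 fold change was 1.43 (SE 0.23, limma adjusted p = 0.00197). The spread was wider among the Rpt3+/+ arrays (SD 0.48) than among the Rpt3−/− arrays (SD 0.23), and the lowest value was that of the first Rpt3+/+ array. Measured within each array, Casq2 gained 2.40 log2 units on Casq1 in Rpt3−/− muscle. An exact two-sided permutation test over the 6 arrays gave p = 0.1, the smallest that 3 arrays against 3 allow.

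Hrc encodes the histidine-rich calcium-binding protein of the lumen, which binds triadin. Its log2 intensities were 12.35, 12.06 and 12.21 in Rpt3−/− muscle against 12.49, 12.12 and 12.18 in Rpt3+/+ muscle. The groups overlapped, and the log2 fold change of -0.05 had a 95% interval from -0.38 to 0.27 (limma adjusted p = 0.844). Its sign turned in 6 of 24 alternative ways of processing, in none of which it passed, so neither a direction nor a lack of change was shown for Hrc.

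Among the junctional anchors, the junctophilins had the largest falls. Jph1, the junctophilin typical of skeletal muscle, had log2 intensities of 8.99, 9.24 and 9.09 in Rpt3−/− muscle against 10.16, 10.28 and 10.30 in Rpt3+/+ muscle. Its groups did not overlap, and the log2 fold change was -1.14 (SE 0.13, limma adjusted p = 0.000292). The second probe of Jph1 also fell, by 1.31 on the log2 scale (limma adjusted p over probes = 0.00674). On that probe the 3 Rpt3−/− arrays lay within 0.01 of each other at 7.31 to 7.32, whereas the Rpt3+/+ arrays lay at 7.91, 9.15 and 8.81.

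Jph2, the junctophilin shared by heart and skeletal muscle, had log2 intensities of 8.38, 8.26 and 8.72 in Rpt3−/− muscle against 9.26, 9.89 and 9.80 in Rpt3+/+ muscle. Again no Rpt3−/− array reached an Rpt3+/+ array, and the log2 fold change was -1.20 (SE 0.19, limma adjusted p = 0.00202). The changes of the 2 junctophilins differed by 0.06 log2 units, which an exact two-sided permutation test did not tell from 0 (p = 0.8). The SD of their difference was 0.31 among Rpt3−/− arrays and 0.27 among Rpt3+/+ arrays, so a small difference between them could not be seen with 3 arrays a group.

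Triadin and junctin, a product of Asph, hold calsequestrin at the release channel. The brightest probe of Trdn, the gene of triadin, read 12.21, 12.24 and 12.44 in Rpt3−/− muscle against 12.94, 12.81 and 12.83 in Rpt3+/+ muscle. The groups were apart, with a log2 fold change of -0.56 (SE 0.13, limma adjusted p = 0.0118). Before normalization between arrays the background-subtracted intensities of this probe overlapped, at 5802, 5228 and 6550 against 8035, 5224 and 6164. The 5224 came from the second Rpt3+/+ array, the dimmest of the 6. Without that array the groups still overlapped, the third Rpt3+/+ array at 6164 lying below the third Rpt3−/− array at 6550. A dimmer probe annotated with the same transcript record did not pass, at -0.20 (limma adjusted p over probes = 0.395). The background-subtracted intensities of that probe were only 47.9 to 109. Trdn lost its call in 6 of the 24 alternatives. Its log2 fold change was -0.25 under median centring (limma adjusted p = 0.281), -0.32 in the authors' value table (limma adjusted p = 0.263), -0.38 for the mean of its probes (limma adjusted p = 0.0645) and -0.31 with control spots in the quantile normalization (limma adjusted p = 0.19). The other losses came without the first Rpt3−/− array and without the third Rpt3+/+ array.

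Asph gives rise to junctin, to junctate and to an enzyme that hydroxylates aspartate and asparagine, through alternative transcripts. The log2 intensities of its brightest probe were 9.93, 9.999 and 9.67 in Rpt3−/− muscle against 10.53, 10.19 and 10.29 in Rpt3+/+ muscle. The groups did not overlap, and the log2 fold change of -0.47 stood at the threshold (SE 0.15, limma adjusted p = 0.0496), with an adjusted p of 0.051 from limma when all probes were tested together. A second probe, annotated with a different transcript record, had a log2 fold change of 0.10 and did not pass (limma adjusted p over probes = 0.691). Before normalization between arrays its brightest probe overlapped between groups, at 1073, 1067 and 880 against 1549, 758 and 1051. The lowest value, 758, was that of the dim second Rpt3+/+ array. Without that array the groups still overlapped, the third Rpt3+/+ array at 1051 lying below the first and second Rpt3−/− arrays. Of the 24 alternatives 15 left Asph without a call, and which of its products each probe reads is not stated in the sources used here.

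The voltage sensor and the release channel face each other across the junction. Cacna1s, which encodes the pore and voltage-sensing subunit of the tubular calcium channel, had log2 intensities of 11.05, 10.88 and 11.18 in Rpt3−/− muscle against 11.68, 11.88 and 11.99 in Rpt3+/+ muscle. The groups did not overlap, and the log2 fold change was -0.81 (SE 0.14, limma adjusted p = 0.00299). Cacng1, which encodes the gamma subunit of the same channel, read 10.35, 10.29 and 10.30 in Rpt3−/− muscle against 10.60, 10.31 and 10.40 in Rpt3+/+ muscle. It overlapped between groups, with a log2 fold change of -0.12 (95% interval from -0.41 to 0.16, limma adjusted p = 0.562). Within each array Cacna1s lost 0.69 log2 units against Cacng1, at the smallest p that an exact two-sided permutation test of 3 arrays against 3 can give (p = 0.1).

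Ryr1, which encodes the calcium release channel of skeletal muscle, had log2 intensities of 11.91, 11.84 and 12.06 in Rpt3−/− muscle against 12.39, 12.41 and 12.44 in Rpt3+/+ muscle for the brightest of its 5 probes. The groups did not overlap, and the log2 fold change was -0.48 (SE 0.12, limma adjusted p = 0.0217). Before normalization between arrays the background-subtracted intensities of this probe were 4569, 3935 and 5015 against 5219, 3851 and 4621, and there the groups did overlap. Here too the lowest value, 3851, was that of the dim second Rpt3+/+ array. The groups still overlapped without it, the third Rpt3+/+ array at 4621 lying below the third Rpt3−/− array at 5015. The other 4 probes had log2 fold changes of -0.43, -0.23, 0.12 and -0.11, and none of them passed (adjusted p from 0.112 to 0.807 from limma over probes). The log2 fold change of Ryr1 was -0.12 in the authors' own normalized table and -0.12 when the control spots of the array took part in the quantile normalization, and it passed in neither. The fall of Ryr1 thus passed the test with 1 of 5 probes, and its call was lost in 9 of the 24 alternatives. Besides changes of normalization, the losses came with local background subtracted (limma adjusted p = 0.0564), with the mean of its probes (limma adjusted p = 0.227) and with replicate number as a block (limma adjusted p = 0.0504). The call was also lost without the first or the second Rpt3−/− array or the third Rpt3+/+ array. Within each array Cacna1s lost 0.33 log2 units more than Ryr1 (exact two-sided permutation p = 0.1, the smallest possible). Over the 4 pairs compared, Casq2 with Casq1, Jph1 with Jph2, Cacna1s with Cacng1 and Cacna1s with Ryr1, the Benjamini-Hochberg adjusted p of these exact tests ranged from 0.133 to 0.8.

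**Figure D2:**
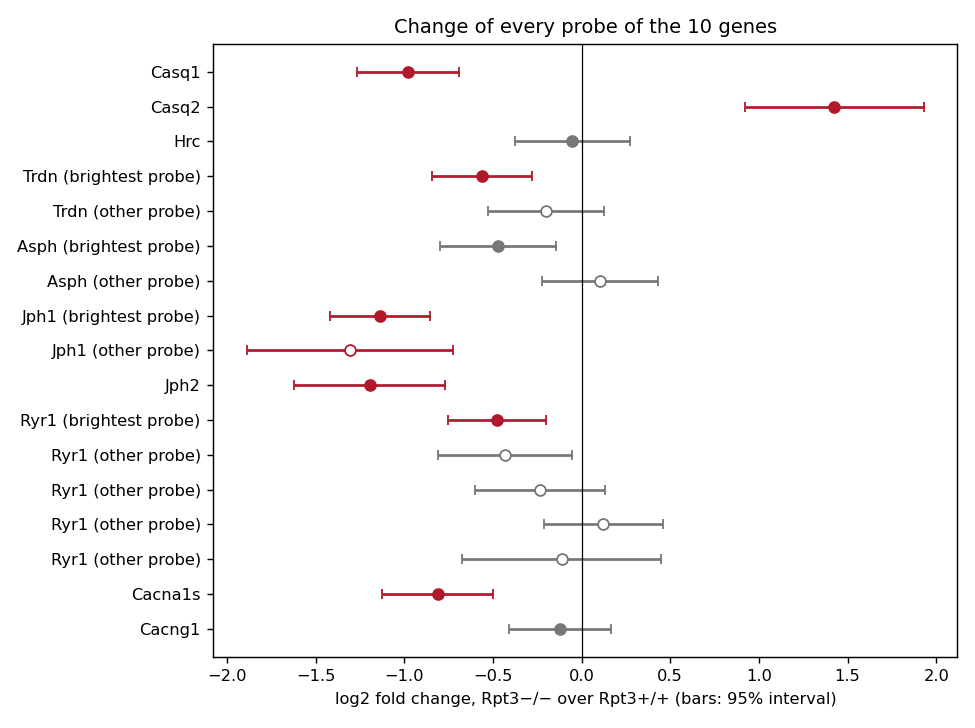
Log2 fold change, Rpt3−/− over Rpt3+/+ (horizontal axis), of each of the 17 probes of the 10 genes, with 95% intervals. Filled points are the brightest probe of a gene and open points its other probes, and red marks an adjusted p under 0.05 from limma over all probes. Both probes of Jph1 pass, whereas of the 5 probes of Ryr1 only the brightest does, and Asph lies just outside the threshold at an adjusted p of 0.051.

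Of the 17 probes of the 10 genes 8 passed when all probes on the array were tested together. The share of all probes that passed was not counted, so the counts of probes given here have no background to be read against. Both probes of Jph1 ran the same way, and Casq1, Casq2, Jph2 and Cacna1s had 1 probe each, so a second reading was had for Jph1 alone among the genes with the larger changes. Over the 24 alternatives Casq1 kept its call throughout, with log2 fold changes from -1.52 to -0.76, and so did Jph1, with -1.71 to -0.94. Casq2 ranged from 0.80 to 1.68 and Jph2 from -1.82 to -1.05, and each lost its call only by the unpaired parametric test of the study's methods after adjustment (adjusted p = 0.0721 and adjusted p = 0.063). Cacna1s lost its call under median centring alone, at -0.51 (limma adjusted p = 0.0555). The largest departures came from centring on Actb, which shifts every gene of an array alike and under which all 10 genes were lower than in the reported setting.

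**Figure D3:**
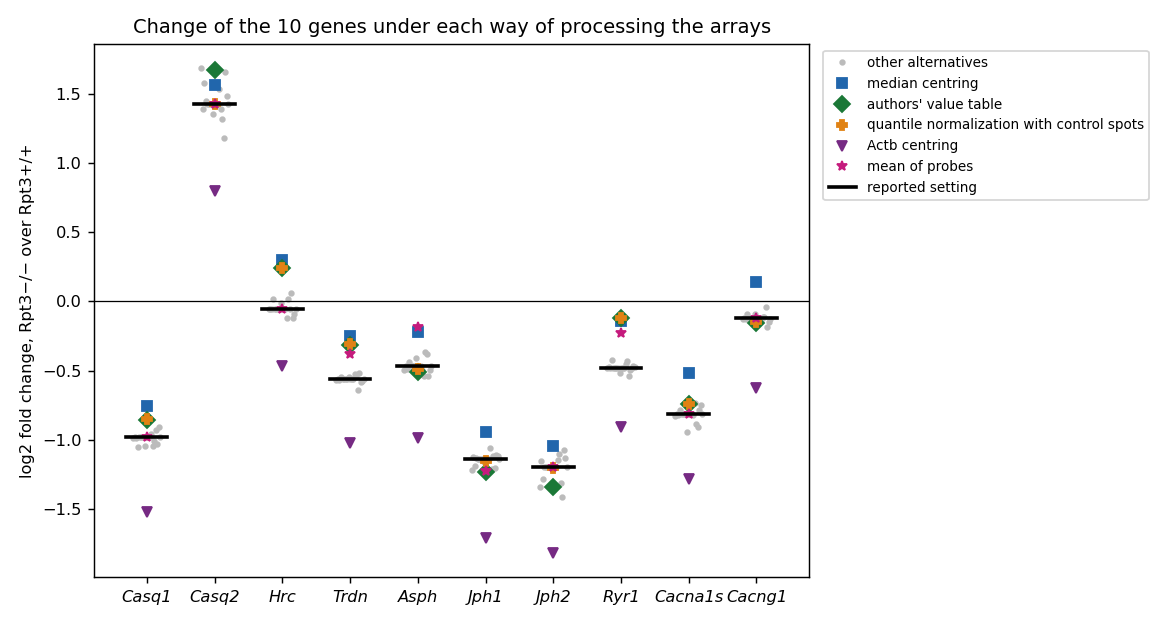
Log2 fold change, Rpt3−/− over Rpt3+/+ (vertical axis), of the 10 genes in the reported setting (black line) and in 24 alternatives, 5 of them marked by colour. Casq2 stays above 0 and Casq1, Jph1, Jph2 and Cacna1s stay below 0 throughout, whereas Ryr1 moves from -0.48 to -0.12 in the authors' value table and Hrc lies on both sides of 0.

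Sequence before the start of transcription was given in RefSeq (GRCm38.p6) for 6 of the 10 genes, in 7 windows of 250 bases, since Jph2 has 2 starts. The windows of the genes that led the result are shown, Casq1 and Casq2 for their opposite directions and Jph2 and Cacna1s for their falls. Capitals mark the E-boxes CAGCTG and CACCTG, which reads CAGGTG on the other strand, the kind of site that myogenic bHLH factors bind. The windows lie at chr1:172219896-172220145 on the minus strand for Casq1, chr3:102086165-102086414 on the plus strand for Casq2, chr2:163397994-163398243 on the minus strand for Jph2 and chr1:136052561-136052810 on the plus strand for Cacna1s. All are written 5′ to 3′ on the strand of the gene and end at the base before the start.
Casq1: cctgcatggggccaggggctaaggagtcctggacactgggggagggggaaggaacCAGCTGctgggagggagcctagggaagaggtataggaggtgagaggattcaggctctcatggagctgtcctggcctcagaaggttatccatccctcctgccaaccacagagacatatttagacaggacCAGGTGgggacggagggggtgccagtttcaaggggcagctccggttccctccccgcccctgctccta
Casq2: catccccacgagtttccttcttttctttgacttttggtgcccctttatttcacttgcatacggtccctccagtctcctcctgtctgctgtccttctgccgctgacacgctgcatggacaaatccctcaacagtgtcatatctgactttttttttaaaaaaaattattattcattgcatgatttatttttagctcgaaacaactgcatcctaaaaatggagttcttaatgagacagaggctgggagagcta
Jph2: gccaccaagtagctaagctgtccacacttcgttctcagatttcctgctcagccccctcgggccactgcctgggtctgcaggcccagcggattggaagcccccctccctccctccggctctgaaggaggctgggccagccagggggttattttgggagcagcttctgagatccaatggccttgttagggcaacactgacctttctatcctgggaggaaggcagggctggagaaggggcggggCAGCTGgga
Cacna1s: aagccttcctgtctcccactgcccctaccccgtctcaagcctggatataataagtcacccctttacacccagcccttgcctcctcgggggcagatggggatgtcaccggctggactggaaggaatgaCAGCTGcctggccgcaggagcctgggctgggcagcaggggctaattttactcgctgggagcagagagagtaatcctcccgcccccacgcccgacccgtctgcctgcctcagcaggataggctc
In the Casq1 window CAGCTG begins 195 bases before the start and CACCTG, on the other strand, 67 bases before it. CAGCTG begins 9 bases before the start of Jph2 and 123 bases before that of Cacna1s, and neither E-box was found in the windows of Casq2 and Ryr1. The window of Hrc, which did not pass the test, also held CAGCTG, 22 bases before the start. CAGCTG, searched on both strands, was thus in 5 of the 7 windows, of which the 2 of Jph2 overlap, against 13.0% of 32851 windows of the same length in RefSeq. CACCTG was in 1 of the 7 windows and in 17.2% of all windows. TATAAA, searched on the gene's strand, was in none of the 7 and in 7.59% of all windows. A match describes these letters and says nothing of whether a factor binds there, and no binding was measured.

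Other genes of excitation-contraction coupling and calcium handling were listed by function. Of 74 such genes 66 were tested, and of these 6 were higher and 11 lower by the same test, which is 9.09% and 16.7%, against the 12.7% and 6.56% of all tested genes. Their median log2 fold change was -0.08. Leaving out any one Rpt3−/− array left 3 of the 66 higher, and 6 were lower without the second or the third Rpt3−/− array and 5 without the third Rpt3+/+ array.

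In the set of channel subunits and couplers 1 of 23 genes was higher and 4 were lower. Rrad, a small GTPase that binds the beta subunit of calcium channels and restrains them, read 9.23, 8.98 and 9.15 in Rpt3−/− muscle against 7.54, 7.63 and 7.59 in Rpt3+/+ muscle. That is a log2 fold change of 1.53 (SE 0.13, limma adjusted p = 4.99e-05) with no overlap, and it kept its call in all 24 alternatives. Homer1, a scaffold that binds ryanodine receptors, was at -1.25, and was above background on 2 of the 3 Rpt3−/− arrays. Stac3, the adaptor that couples the voltage sensor to the release channel, was at -0.53, Calm3, one of the calmodulin genes, at -0.52, and Ryr2, the release channel of heart, at -0.44. Ryr2 lost its call in 14 of the 24 alternatives, Stac3 in 6, Calm3 in 3 and Homer1 in 1 of the 23 in which it was tested.

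In the set of triad and tubule structure none of 14 genes was higher and 5 were lower. By the unadjusted p of limma these counts were 1 and 5. Speg, a striated muscle kinase that sits at the triad, had log2 intensities of 10.09, 9.95 and 10.17 in Rpt3−/− muscle against 10.97, 11.32 and 10.99 in Rpt3+/+ muscle. Its log2 fold change was -1.02 (SE 0.14, limma adjusted p = 0.00096). Tmem38a, a cation channel of the sarcoplasmic reticulum that balances charge during calcium release, was at -0.83, Sypl2, also called mitsugumin-29, at -0.63, and Ank1, whose short muscle product lies in the sarcoplasmic reticulum, at -0.61. The fifth, named after its value was seen, was the neuronal junctophilin Jph4 at -0.39, which lost its call in 12 of the 24 alternatives. Sypl2 lost its call in 6 of them and Ank1 in 1, and Speg and Tmem38a kept theirs in all 24. The fall of Speg was smaller with the mean of its probes, at -0.61. Bin1 and Cav3, which shape the tubules, were at -0.13 and 0.00 and did not pass.

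In the set of reuptake, buffering and refilling, 5 of 29 genes were higher and 2 were lower. Sln, whose product sarcolipin inhibits the calcium pump of the reticulum, read 14.03, 13.68 and 13.40 in Rpt3−/− muscle against 7.74, 7.69 and 7.65 in Rpt3+/+ muscle, a log2 fold change of 6.01. Atp2a2, the pump isoform of slow fibers and heart, was at 0.59 (limma adjusted p = 0.0202), and Atp2a1, the isoform of fast fibers, at -0.21 (limma adjusted p = 0.278). The rise of Orai2, a store-operated calcium channel, was at least 2.40-fold, since none of the Rpt3+/+ arrays read it well above background, the Rpt3+/+ level being taken, on each array, as the higher of its own signal and the lowest signal among probes above background. Sdf4, a luminal calcium-binding protein of the secretory pathway, was at 0.89, and Pln, whose product phospholamban also inhibits the pump, was at 0.43 in the reported setting and at -0.29 with Actb centring (named after its value was seen). Slc8a3, a sodium-calcium exchanger of the surface membrane, was at -1.65, and Srl, the luminal calcium binder sarcalumenin, at -0.47. Of the 24 alternatives Srl lost its call in 11, Atp2a2 in 7 and Sdf4 in 2, Pln did not pass in 5 besides turning in the 1 named, and Sln and Slc8a3 kept theirs in all. With the mean of its probes the fall of Slc8a3 was smaller, at -0.95.

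**Figure D4:**
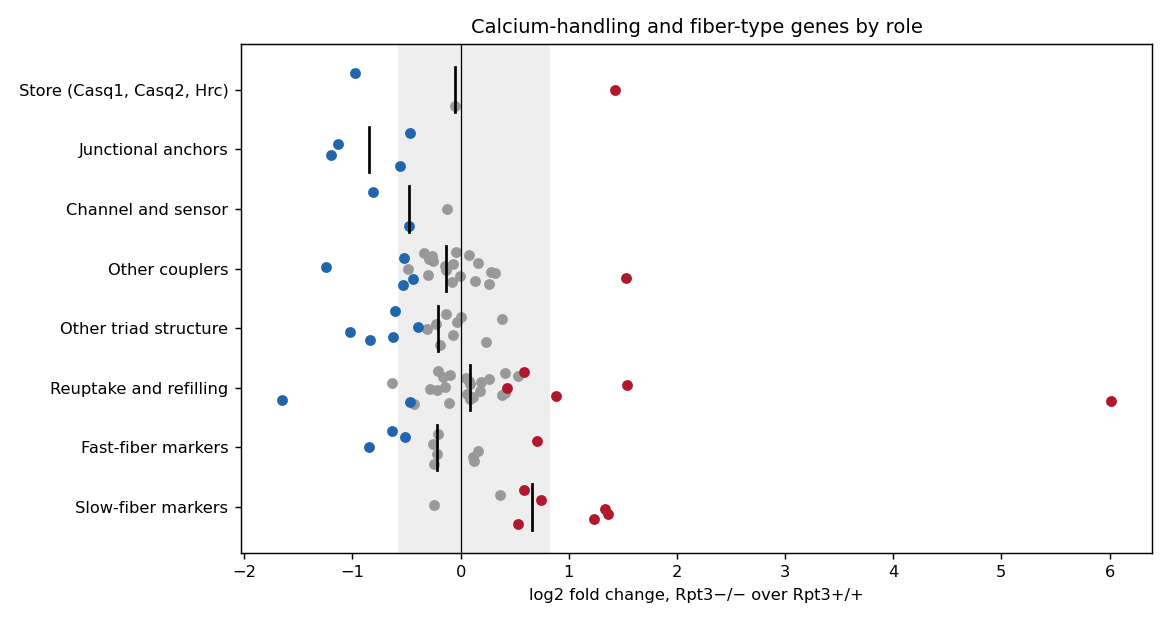
Log2 fold change, Rpt3−/− over Rpt3+/+ (horizontal axis), of single genes grouped by role, with the 10 triad genes in the upper 3 rows. Red and blue points are genes that passed the test as higher and as lower, gray points did not pass, short black lines are medians and the shaded band holds the middle of all tested genes, from -0.57 (5%) to 0.82 (95%). The 4 junctional anchors are all blue, the store row holds Casq1 and Casq2 at opposite ends, and 6 of the 8 slow-fiber markers are red.

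Markers of fiber type moved on the same arrays. Of 8 tested slow-fiber markers 6 were higher and 0 lower, and the log2 of their summed intensity ranged from 14.65 to 14.75 on the Rpt3−/− arrays and from 14.06 to 14.34 on the Rpt3+/+ arrays. The higher ones were Tnni1 (log2 fold change 1.36), Tnnc1 (1.33), Tnnt1 (1.23), Myl2 (0.74), Atp2a2 (0.59) and Tpm3 (0.53), and Tpm3 lost its call in 6 of the 24 alternatives, while Myh7, the slow myosin heavy chain, was at 0.37 and Myl3 at -0.25 without a call. Of 11 fast-fiber markers 3 were lower (Myl1, Actn3 and Mybpc2) and 1 was higher (Myh1), with a log2 summed intensity of 17.58 to 17.60 on the Rpt3−/− arrays and 17.72 to 17.82 on the Rpt3+/+ arrays. Quantile normalization gives all arrays the same set of values, which limits how far the brightest probes, such as these, can differ. With cyclic loess in its place Myl1 moved from -0.85 to -1.18, Actn3 from -0.64 to -0.88 and Mybpc2 from -0.51 to -0.93. Myh1 stayed higher, at 0.71. With median centring instead, Myl1 was at -0.87, Actn3 at -0.57, a smaller fall than in the reported setting, Mybpc2 at -0.62 and Myh1 at 0.83. Whether quantile normalization made the falls of these markers smaller was not tested. All 11 fast-fiber markers passed the filter on dim signals. The part of fiber type in the changes of Casq1, Casq2 and the junctophilins was not tested. Markers of immature fibers were higher for 8 of 9 genes and lower for 1, Actc1, and those of denervated fibers higher for 5 of 9, 4 of them shared by both lists.

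Markers of other cells moved as well. Of 13 tested macrophage markers 10 were higher and 0 lower, with a log2 summed intensity of 13.06 to 13.61 on the Rpt3−/− arrays and 11.71 to 11.82 on the Rpt3+/+ arrays. Of 12 fibroblast markers 5 were higher and 0 lower, with 15.15 to 15.18 against 14.51 to 14.75. No call was made among 8 endothelial and 6 smooth muscle markers, and by the unadjusted p of limma 1 endothelial marker was lower and 0 were higher. Their part in the falls of the triad genes was not tested. Casq2 is also expressed by heart. The heart markers Myh6, Myl7, Nkx2-5 and Mybpc3 did not reach the filter, and Tnni3 was at -0.17 without a call. Ryr2 was lower, a call it lost in 14 of the 24 alternatives, and Atp2a2, which heart shares with slow fibers, was higher in the reported setting. The source of the rise of Casq2 was not tested.

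Psmc4, the gene of Rpt3, had a log2 fold change of -1.17 by its brighter probe (limma adjusted p over probes = 0.000334). Its dimmer probe, above background on only 2 of the 3 arrays of each group, was at -0.23 and did not pass (limma adjusted p over probes = 0.379). Where these probes lie relative to the floxed part is not stated in the sources used here. The share of transcript probes above background was 57.0% to 74.5% across the arrays, lowest on the second Rpt3+/+ array. On that array Casq1, Casq2, Jph1, Jph2 and Cacna1s lay on the same side of every Rpt3−/− array as on the other Rpt3+/+ arrays, and without it 7 of the 10 genes were lower and 1 higher. Without the first Rpt3−/− array or the third Rpt3+/+ array 4 were lower and 1 higher.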

How the data were processed

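The authors deposited, for each array, a scanner report of CodeLink Expression Analysis 5.0.0.31312, which holds the intensity of each spot, that of its local background and a quality flag, with no normalization between arrays. They also deposited a value table of linear intensities. Every column matched 1 array (Pearson r of at least 0.9969 over probes), and all had a median of 89.0, with masked spots at a floor. The paper refers to the manufacturer's instructions for the arrays, and its statistics section names an unpaired parametric test for the study as a whole, called the methods' test here.

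Groups and replicate numbers came from the sample labels. The labels describe 3 mice a group, and each slide held 1 array, so no block for slide could be fitted. Probes were named from the platform annotation or, for 535 of them, through their RefSeq accession, and 22150 of 34967 transcript probes had 1 gene. Background correction was by normexp (offset 50) in limma 3.58.1 (R 4.3.3), after which the 1260 control spots and any masked or contaminated spots were dropped. After quantile normalization, log2 intensities entered lmFit and eBayes, with Benjamini-Hochberg adjustment over genes. The filter asked for a probe above background on 3 or more of the 6 arrays. Genes with several probes were read from the brightest. Fold changes of dim probes are drawn toward 0 by the offset. All probes of the 10 genes were also tested in a fit over probes. A fold against a group not well above background is given as a bound. Files and promoter windows were read with Python 3.11.15. The steps were tested on simulated intensities.

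The 10 genes, the lists and the tests were chosen with earlier results of these data known. Named were all 10 genes, up to 4 called genes of each list in each direction with the largest change and the gene of lowest adjusted p, the targeted gene, and the 3 genes most correlated with the gene of largest change. The marker genes were named after their values were seen. As alternatives, the background correction, its offset, the normalization, the filter on dim probes, the variance model and the test (the methods' test) were varied, probes were averaged, the authors' value table was used, replicate number was taken as a block (replicate block) and arrays were left out one by one. Leaving out irregular spots, and quantile normalization with control spots, were added after seeing the data. Precision is limited by the number of arrays and by how far signals stand above background.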

Additional observations from a re-analysis of the deposited data

How the results depend on the processing

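Of 240 values of the 10 genes under 24 alternatives 199 kept their direction and their side of the threshold. Median centring left 3 of the 10 genes lower, 5 of the probes called, 5 of the other calcium-handling genes lower and 600 of all genes lower. The authors' value table left 4 of the 10 and 7 of the others lower, and the mean of probes left 4 of the 10 lower. Quantile normalization with control spots gave Ryr1 -0.12, Trdn -0.31 and Hrc 0.24, where the value table gave -0.12, -0.32 and 0.24. Centring on Actb left 3 of the other calcium-handling genes higher and 44 lower, 329 of all genes higher and 10326 lower, and 16 of the probes called. Relative to the median of all genes under each setting, Casq1 ranged from -1.05 to -0.81 and Casq2 from 1.18 to 1.70. Array weights gave 11 of the other calcium-handling genes higher and 20 lower, and 3008 of all genes higher and 2361 lower. The methods' test gave 0 of the 10 higher after adjustment (1 without it) and 5 lower (7 without it). After adjustment it also gave 6 of the others lower, 5 of the probes called, and 940 of all genes higher and 427 lower. Without adjustment 1636 of all genes were lower. Leaving out each array gave 4 to 7 of the 10 lower and 1 higher each time, 6 to 9 probes called, 3 to 9 of the others higher and 5 to 13 lower, and 1087 to 2314 of all genes higher and 390 to 1453 lower. Of all genes, 1189 were higher and 478 lower without the first Rpt3−/− array, 1087 and 542 without the third, 1099 and 390 without the third Rpt3+/+ array, and 1453 were lower without the first. Hrc, which had no call, turned to 0.30 under median centring, 0.016 under cyclic loess, 0.24 in the value table, 0.24 with control spots, 0.018 without the second Rpt3−/− array and 0.060 without the first Rpt3+/+ array. Cacng1 turned to 0.14 under median centring and passed at -0.63 under Actb centring, and Pln turned to -0.29 there. Actb centring shifts all genes alike by the change of Actb itself, which was higher in Rpt3−/− muscle relative to the median of all genes. The cause of the other turns was not tested. With control spots 5 of the 10 and 12 of the others were lower, against 4 and 7 in the value table, so the settings matched for Ryr1, Trdn and Hrc and not in their counts. For arrays of equal replicate number the deviations from the group means correlated at 0.13, -0.44 and 0.10, and for the other combinations at -0.48 to 0.47. With 3 arrays a group the deviations are tied to each other, so these values cannot tell whether arrays were paired. With a replicate block 5 of the 10 genes were lower and 1 higher, and Ryr1 and Asph were not called. With 3 arrays a group, small changes such as those of Asph and Ryr1 lie near the limit of detection.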

Other observations

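The genes whose log2 intensities followed those of Casq2 most closely over the 6 arrays, among 14670 other genes measured on all arrays, were Dctn5, a subunit of dynactin (Pearson r 0.999), Ezh1, a histone methyltransferase of a Polycomb complex (0.999), and Irak1, a kinase of Toll-like receptor signalling (0.998). Their log2 fold changes were 0.45, 0.49 and 0.57. With 6 arrays in 2 groups, such values describe the group difference and the order of the arrays within it, and no test was made of them.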
